A study of Saccharomyces cerevisiae with 51 samples.

Results

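Chromatin accessibility was compared between wild-type budding yeast and cells without ARP5 by ATAC-seq, which counts where a transposase can cut into open DNA. The comparison took all 24 ATAC libraries of the series (of 51 samples), 12 of the wild-type strain CEN.PK and 12 of CEN.PK ARP5::KAN (arp5∆), in which a drug-resistance cassette replaces the gene. Members were all genes of the deposited accessibility table with a mean of at least 10 over the libraries, and this kept 5193 of 5193 genes, with means from 23.6 to 3150 and a median of 202. The libraries came from yeast in continuous culture, sampled in 6 phases of the metabolic cycle with 2 technical libraries per phase, and each genotype rests on 1 culture. The table's columns name the genotype and not the phase, so no library was assigned to a phase. RNA values of the same series, 12 libraries per genotype, serve as a second readout. The ATAC p-values treat technical pairs as separate libraries and are therefore too small. They measure the spread over these libraries, and a difference between the 2 cultures cannot be told apart from one between the genotypes.

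INO80 is a large ATP-driven complex that slides and spaces nucleosomes, above all those that flank the nucleosome-free stretch at the start of genes. Arp5 is an actin-related subunit that couples the energy of ATP to this sliding. In continuous culture yeast cells pass together through bursts of respiration and growth and through phases of division and storage, and many promoters open and close along the way. The table holds 1 normalised value per gene. The sources used here do not say which window around a gene the value covers, and it is read below as the accessibility assigned to that gene.

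ARP5 itself (YNL059C, chromosome XIV, 512668 to 514935 in the yeast assembly R64) was read first. Its accessibility was 142, 167 and 194 (lowest, median and highest of 12 libraries) in wild type and 103, 113 and 133 in arp5∆. Every arp5∆ library lay below every wild-type library, with a log2 difference of -0.51 ± 0.06 (SE), under the 1.5-fold that a call needed. Since the window is unknown, this value checks nothing about the deletion. The RNA does: ARP5 was listed at 0 in 11 of 12 arp5∆ RNA libraries and had at most 0.0649 FPKM in the remaining one.

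A gene was called where limma's test gave a Benjamini-Hochberg adjusted p under 0.05 and the difference was at least 1.5-fold. By this rule 429 genes (8.26%) were more accessible in arp5∆ and 288 (5.55%) less accessible, while 4476 were not called. The called genes changed by a median of 1.73-fold upward and 1.62-fold downward. A difference of at least 2-fold was reached by 110 genes upward and 24 downward. Without regard to size, all 12 arp5∆ libraries lay above all 12 wild-type libraries in 530 genes (10.2%) and below them in 509 (9.8%). Among the called genes the groups did not overlap in 336 of the 429 higher ones and 224 of the 288 lower ones. The median difference over all genes was -0.02 (log2), with quartiles of -0.27 and 0.23.

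The genes that gained accessibility started low and those that lost it started higher. The median wild-type value was 151 in the called higher genes and rose to 271. In the called lower genes it was 259 and fell to 152, against a wild-type median of 202 over all genes. These starting levels are part of the same contrast and are given as a description.

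The widest gain of all 5193 genes was at SIR2 (YDL042C, chromosome IV, 376757 to 378445), which encodes the NAD-dependent histone deacetylase of silent chromatin. Its accessibility was 118, 127 and 157 (lowest, median, highest) in wild type and 409, 510 and 614 in arp5∆. The groups were far apart, with a 3.92-fold difference (log2 1.97 ± 0.06, SE, limma adjusted p = 2.48e-21). Its RNA was 28.1 FPKM in wild type and 34.8 in arp5∆ and was not called (log2 0.33 ± 0.17, limma adjusted p = 0.434). NUP157, a scaffold gene of the nuclear pore, went from a median of 46.6 to 162 (log2 1.81 ± 0.08). PRP39, which encodes a protein of the U1 splicing particle, went from 47.6 to 151 (log2 1.68 ± 0.10). In both genes no libraries of the genotypes overlapped, and the RNA differences of -0.16 and 0.22 were not called.

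TAF13 encodes a subunit of the general transcription factor TFIID. It had values of 95.0, 163 and 188 in wild type and 421, 474 and 526 in arp5∆, again with no overlap (log2 1.63 ± 0.09, limma adjusted p = 1.17e-15). KTR3, a mannosyltransferase gene of the secretory pathway, rose by 1.57 ± 0.06 (log2), and its divergent neighbour LDH1, 240 bp away, by 1.45. HTD2, a dehydratase gene of mitochondrial fatty acid synthesis, rose by 1.53 ± 0.08. BDS1, a sulfatase gene, rose by 1.55 ± 0.05.

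Genes for surface and transport proteins were also among the 12 widest gains of genes with a standard name and groups that did not overlap. DIP5 encodes the permease for glutamate and aspartate. Its accessibility was 328, 404 and 560 in wild type and 998, 1201 and 1357 in arp5∆ (log2 1.54 ± 0.07, limma adjusted p = 1.99e-17), with no overlap. AGA1 encodes the cell wall anchor of a-agglutinin, the mating adhesin. It had 46.7, 95.2 and 169 in wild type and 243, 278 and 343 in arp5∆ (log2 1.55 ± 0.16), and its wild-type libraries spread over a wider range in proportion than those of arp5∆. VBA1, a vacuolar permease gene for basic amino acids, rose by 1.53 ± 0.07. PDR8, a zinc cluster transcription factor gene, rose by 1.73 ± 0.09, and its divergent neighbour BOP2 by 1.61 ± 0.09.

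**Figure D1:**
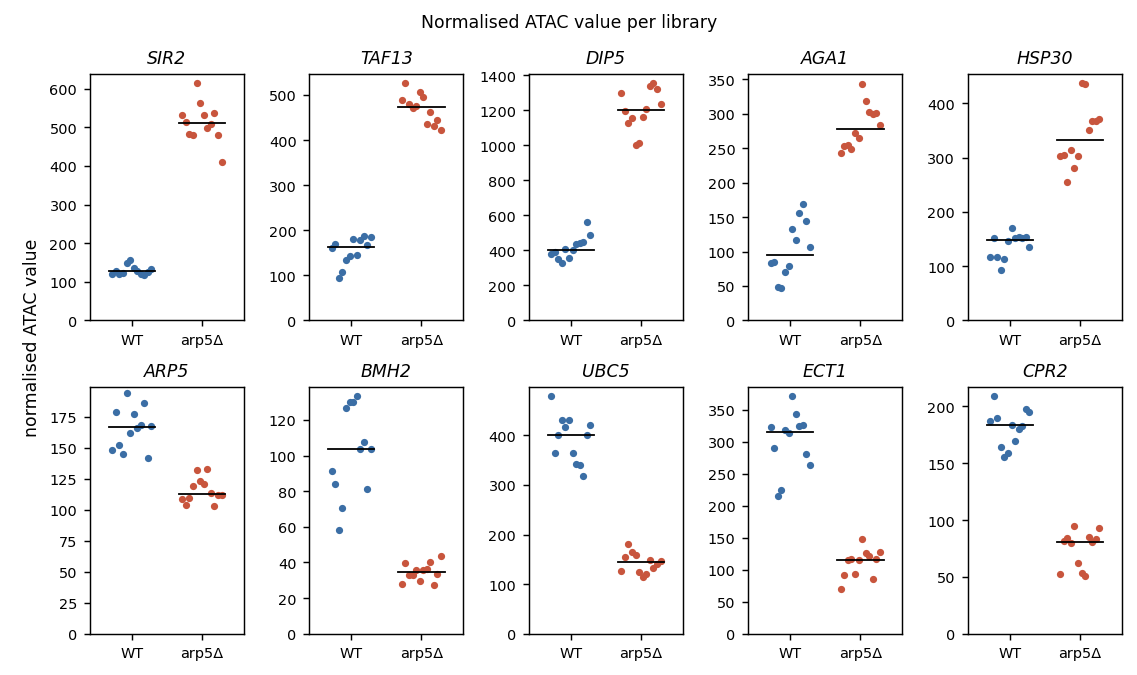
Normalised ATAC value (linear axis from 0) of 10 genes in the 12 wild-type (blue) and 12 arp5∆ (red) libraries, 1 point per library, with the median as a black line. In every panel the points of the genotypes do not overlap; SIR2, TAF13, DIP5, AGA1 and HSP30 are higher in arp5∆, and ARP5, BMH2, UBC5, ECT1 and CPR2 are lower.

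The plot of single libraries shows the same separation for losses as for gains. The widest loss among genes with a standard name and groups that did not overlap was at BMH2, which encodes a 14-3-3 protein. Its accessibility was 58.2, 104 and 133 in wild type and 27.3, 34.6 and 43.5 in arp5∆ (log2 -1.49 ± 0.12, limma adjusted p = 5.03e-12). These are low values in both genotypes, and its RNA was high and not called (893 and 857 FPKM). HMS2, which encodes a protein related to heat shock factors, fell from a much higher level: it had 842, 1124 and 1434 in wild type and 351, 399 and 454 in arp5∆ (log2 -1.44 ± 0.08). Its RNA difference of -0.10 was not called.

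UBC5 (YDR059C, chromosome IV, 569234 to 569770), a ubiquitin-conjugating enzyme gene, had 317, 401 and 479 in wild type and 114, 144 and 181 in arp5∆ (log2 -1.46 ± 0.07). ECT1 encodes an enzyme of phosphatidylethanolamine synthesis. It had 215, 316 and 371 in wild type and 70.3, 116 and 149 in arp5∆ (log2 -1.44 ± 0.10). CPR2, a cyclophilin gene, had 155, 184 and 209 in wild type and 51.2, 81.0 and 94.9 in arp5∆ (log2 -1.29 ± 0.10). In all of these every arp5∆ library was below every wild-type library.

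Further losses fell on genes with varied roles. APS1, which encodes the small subunit of the AP-1 clathrin adaptor, fell by 1.25 ± 0.05 (log2). LDO45 and LPL1, both genes of lipid droplet proteins, fell by 1.22 ± 0.08 and 1.09 ± 0.11. FSH1, a serine hydrolase gene, fell by 1.21 ± 0.11 and MIR1, the gene of the mitochondrial phosphate carrier, by 1.11 ± 0.09. RAD54, which acts in recombinational repair, fell from a median of 247 to 122 (log2 -1.09 ± 0.06). ARR2, the arsenate reductase gene, fell by 1.06 ± 0.07. Both calls were lost when each divergent pair was entered once as the mean of its genes, with values of -0.52 for RAD54 and SUT1 and of -0.40 for ARR2 and ARR3.

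Of 40 genes in 4 chromatin lists 6 were called (15%), a share near the 13.8% called either way over all genes (717 of 5193). Of 14 members of the INO80 complex list with a value, 1 rose and 1 fell, with a median of 0.10 (log2). ARP4, an actin-related subunit that INO80 shares with other complexes, rose from a median of 57.6 to 97.7 (log2 0.77 ± 0.08), while its RNA differed the other way by -0.85 ± 0.14 on the log2 scale (limma adjusted p = 0.0419), which is under the 2-fold that an RNA call needed. IES6, the gene of the subunit that pairs with Arp5, fell from 1210 to 740 (log2 -0.69 ± 0.03). Its divergent neighbour GLY1, 964 bp away, was at -0.19 and not called. The mean of the IES6 and GLY1 differences is under the 1.5-fold that a call needed, so the IES6 call is lost when this pair is entered once. Of 9 genes of H2A.Z and its loader SWR1, ARP6 alone was called (log2 0.86 ± 0.08), and none of the 8 core histone genes was. The divergent neighbour of ARP6, SMC4, 253 bp away, was called higher too (0.65). Of 9 other remodeler genes 2 rose and 1 fell. RSC2, a subunit gene of the RSC complex, went from 162, 172 and 220 in wild type to 447, 487 and 539 in arp5∆ (log2 1.45 ± 0.05), and its RNA hardly differed (31.1 and 30.4 FPKM). IRC5 rose by 0.60 ± 0.05, a call lost with a pseudocount of 10 (0.58), and ARP9, an RSC and SWI/SNF subunit gene, fell by 0.65 ± 0.07. The divergent neighbour of IRC5, RSC8, 193 bp away, was called higher too (0.66), with medians of 208 in wild type and 325 in arp5∆.

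Storage carbohydrate genes stood at the top of the 30 gene lists by median. Of 14 trehalose and glycogen genes 7 rose and none fell, with a median of 0.52 (log2) against -0.02 over all genes. The shares over all genes were 8.26% higher and 5.55% lower. GPH1, the glycogen phosphorylase gene, had 279, 713 and 904 in wild type and 905, 1091 and 1353 in arp5∆ (log2 0.78 ± 0.14, limma adjusted p = 9.33e-06). Its lowest arp5∆ library lay just above its highest wild-type library. PGM2, the phosphoglucomutase gene, had 236, 578 and 726 in wild type and 632, 939 and 1180 in arp5∆ (log2 0.77 ± 0.14), with overlap. The other 5 were the glycogen synthase genes GSY1 (0.59) and GSY2 (0.74), GLC3 (0.61), GLG1 (0.73) and UGP1 (0.69). All arp5∆ libraries lay above all wild-type ones in 2 of the 14, beside 10.2% of all genes. The median RNA difference of the list was 0.75 (log2), and none of its genes was called in RNA.

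Stress and heat shock genes that passed the call were all higher in arp5∆. Of 30 members 7 rose and none fell, with a median of 0.34, against 8.26% higher and 5.55% lower over all genes. HSP30, which encodes a heat shock protein of the plasma membrane, had 93.6, 149 and 170 in wild type and 256, 332 and 437 in arp5∆ (log2 1.30 ± 0.09). RTN2, a reticulon gene, went from a median of 188 to 429 (log2 1.17 ± 0.10). Both had groups that did not overlap. SSA4 (0.98), ALD3 (0.93), GPX1 (0.71), GRE1 (0.65) and CTT1 (0.64) were called with overlapping groups. The log2 SD over the 12 libraries was larger in wild type than in arp5∆ in 26 of the 30, beside 59.8% of all genes.

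Lists of lipid and metal genes held further gains, to be read beside 8.26% higher and 5.55% lower over all genes. Of 17 inositol and phospholipid genes 5 rose and 1 fell, with a median of 0.42. ITR2, an inositol transporter gene, rose by 0.80 ± 0.11, and EPT1, which makes phosphatidylethanolamine and phosphatidylcholine, by 0.77 ± 0.06. INO4 (0.75), ITR1 (0.63) and CPT1 (0.62) rose too. EKI1, the ethanolamine kinase gene, fell by 0.73 ± 0.06, while its divergent neighbour SWI5, 888 bp away, was at -0.24 and not called. The mean of the EKI1 and SWI5 differences is under the 1.5-fold that a call needed. The median RNA difference of this list was -0.10. Of 22 iron uptake genes 4 rose and 1 fell, with a median of 0.35. FIT2, a cell wall mannoprotein gene for siderophore iron, went from 357 to 673 (log2 0.94 ± 0.07) and SIT1, a siderophore transporter gene, from 210 to 357 (log2 0.93 ± 0.08). FRE6, a vacuolar metal reductase gene, fell by 0.75 ± 0.07. Of 15 phosphate response genes none rose and 2 fell, VTC1 by 0.67 ± 0.05 and PHO84, the phosphate transporter gene, by 0.60 ± 0.07. PHO84 fell below the 1.5-fold limit with a pseudocount of 10, quantile normalization or median centring, all at -0.58.

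All 11 a-type mating and pheromone genes with a value had a difference above 0, of which 3 were called: AGA1, AGA2 (log2 0.86 ± 0.09) and FUS1 (0.77), a gene of cell fusion. The smallest difference was 0.05, at STE12, the pheromone response factor, which was not called. In all 11 the log2 SD was larger over the wild-type libraries, as it was in 59.8% of all genes. Of 9 meiosis and sporulation genes with a value, of 29 listed, 3 rose and 1 fell. The median over all genes was -0.02 (log2), with 8.26% called higher and 5.55% lower. SPS4 rose by 1.17 ± 0.14 and REC104, a meiotic recombination gene, by 1.06 ± 0.08, while RED1, a gene of the meiotic chromosome axis, fell by 0.71 ± 0.11 with overlapping groups. The 3 that rose included SPS100 (0.81).

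More genes of the 3 lists of cytosolic ribosomal proteins, ribosome biogenesis and RNA polymerases I and III were called lower than higher. Of all genes, 8.26% were called higher and 5.55% lower, and the median difference was -0.02. Of 137 cytosolic ribosomal protein genes 17 fell and 1 rose, yet the list's median of -0.04 was close to that of all genes. RPS8B fell from a median of 70.7 to 38.9 (log2 -0.95 ± 0.11) and RPS29B from 124 to 68.9 (log2 -0.90 ± 0.11), both with groups that did not overlap. RPL2A rose from 1323 to 1948 (log2 0.60 ± 0.04), a call lost under quantile normalization (0.51). Of 91 ribosome biogenesis genes 7 fell and 3 rose, and 20 had a difference above 0 (median -0.25). MAK21, which acts in export of the large subunit precursor, fell by 1.05 ± 0.08 and NOP12 by 0.76 ± 0.09. PUF6, a gene of large subunit assembly and mRNA localisation, rose by 1.08 ± 0.11 and UTP13, a small subunit processome gene, by 0.67 ± 0.07. Of 19 genes of RNA polymerases I and III 3 fell and 1 rose (median -0.28): RPC34 fell by 0.77 ± 0.08, RPC25 by 0.66 ± 0.08 and RPC17 by 0.63, and RET1 rose by 0.72 ± 0.08. The median RNA differences were -0.32 for cytosolic ribosomal proteins, 0.12 for ribosome biogenesis and -0.13 for the polymerases, and none of these genes was called in RNA.

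Few mitochondrial and energy genes were called, beside 13.8% of all genes called either way. Of 67 mitochondrial ribosomal protein genes 3 rose and 1 fell (median -0.10), with MRPL38 at 0.89 ± 0.06, IMG1 at 0.72 ± 0.05 and MRP10 at -0.79 ± 0.06. Of 36 respiratory chain genes 1 fell, ATP4 of the ATP synthase stalk (log2 -0.86 ± 0.05). Among 21 glycolysis and fermentation genes ADH1, the main alcohol dehydrogenase of fermentation, was called lower. It had 178, 491 and 898 in wild type and 141, 314 and 647 in arp5∆ (log2 -0.73 ± 0.28, limma adjusted p = 0.0244), so the groups overlapped widely, and the call was lost under the Wilcoxon rank-sum test. ADH2, the ethanol-consuming isoenzyme, was the only gene called among 15 of gluconeogenesis and C2 metabolism. It had 226, 392 and 667 in wild type and 336, 778 and 949 in arp5∆ (log2 0.69 ± 0.20, limma adjusted p = 0.00371), also with overlap. None of 10 hexose transporter genes was called. Of 33 genes of the peroxisome and fatty acid oxidation 4 rose and 1 fell, near the share called over all genes. PEX2, a peroxisomal ubiquitin ligase gene, had 468, 625 and 735 in wild type and 1533, 1628 and 1709 in arp5∆ (log2 1.39 ± 0.06). PEX21 rose by 1.06 ± 0.08, and PEX19, which inserts peroxisomal membrane proteins, fell by 0.60 ± 0.09. The PEX19 call lay close to the 1.5-fold limit and was lost with a pseudocount of 10 (-0.53), median centring (-0.58) and array weights (-0.58).

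Calls in the nutrient lists are to be read beside 8.26% higher and 5.55% lower over all genes. Of 24 genes under nitrogen catabolite repression 2 rose, near the share over all genes. They were DIP5 and DAL5, the allantoate permease gene (log2 1.08 ± 0.10). Of 60 amino acid synthesis genes 6 rose and 1 fell, near the 13.8% called either way over all genes. LYS12, of lysine synthesis, rose by 1.29 ± 0.17 with overlapping groups, and HOM3, which makes aspartyl phosphate for threonine and methionine, by 0.83 ± 0.07. GCV1, of the glycine cleavage system, fell by 0.90 ± 0.09. Of 23 sulfur assimilation genes CYS3 fell (log2 -0.70 ± 0.10). THI6, a gene of thiamine synthesis, was called among 11 vitamin genes (log2 0.85 ± 0.04), and PIB2, of TORC1 signalling, among 19 (log2 0.77 ± 0.05). In the sterol list of 23, ERG7, the lanosterol synthase gene, fell by 0.71 ± 0.09. None of the 7 anaerobic cell wall genes was called.

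Cell cycle genes were seldom called, beside 13.8% of all genes called either way. Of 49 genes of G1/S and DNA replication 2 rose and 1 fell. RFC1, the large subunit gene of the clamp loader, went from 51.3 to 112 (log2 1.06 ± 0.08) and CLN2, a G1 cyclin gene, from 327 to 545 (log2 0.72 ± 0.06). MCD1, a cohesin gene, fell by 0.59 ± 0.09, a call lost with a pseudocount of 10 (-0.56) or median centring (-0.58). The call of CLN2 was lost when it was averaged with its divergent neighbour BBP1 (0.26). None of 16 genes of G2/M and mitotic exit was called, and their median was 0.02.

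Of 22 genes in subtelomeric families 6 rose and 1 fell (median 0.29), against 8.26% higher and 5.55% lower over all genes. MAL11, a maltose transporter gene, had 278, 574 and 887 in wild type and 1068, 1232 and 1552 in arp5∆ (log2 1.26 ± 0.14), and its divergent neighbour MAL12, the maltase gene, rose by 1.08. AAD4 rose by 1.30 ± 0.10 and PAU5, a seripauperin gene, fell by 0.68 ± 0.11. These families have near-identical copies that can share reads, so the assignment of their values to single genes is uncertain. By position, 212 genes within 30 kb of the outermost gene of a chromosome arm were called higher in 11.3% and lower in 3.77%, against 8.12% and 5.61% of 4814 genes farther in. Chromosome medians ran from -0.11 (chromosome VI) to 0.11 (chromosome I), so no whole chromosome was shifted by the amount of a called gene. On chromosome I 10 of 71 genes were called higher and 1 lower.

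**Figure D2:**
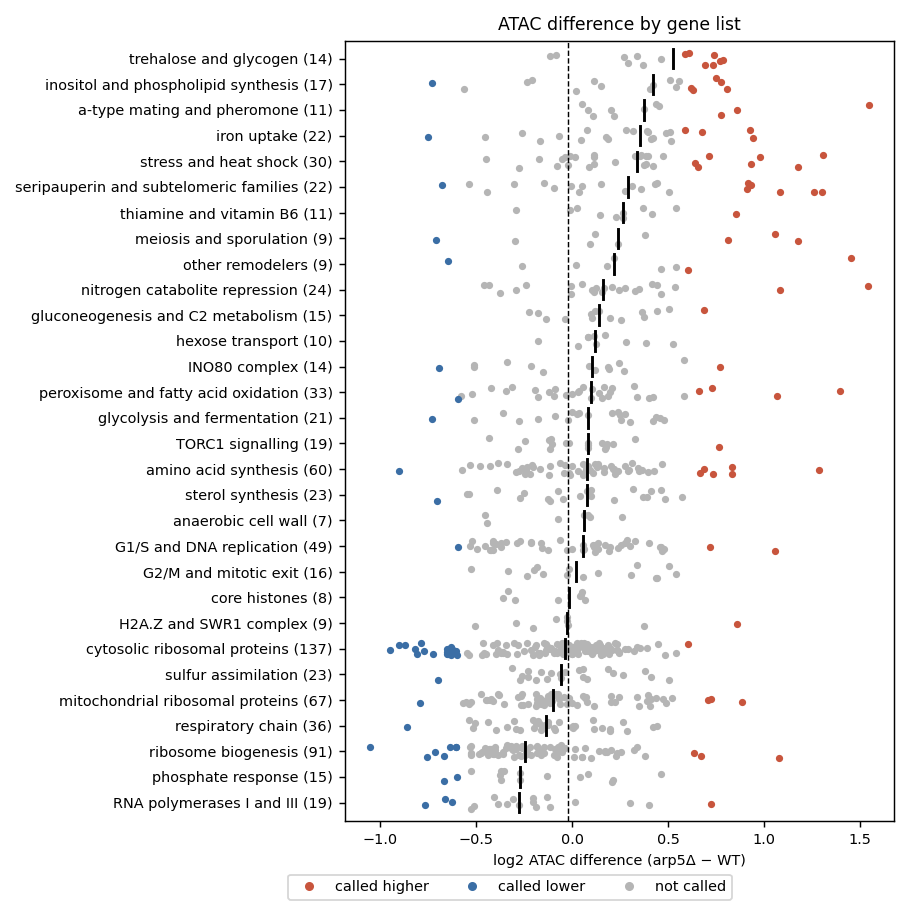
Log2 ATAC difference (arp5∆ minus wild type) of each gene, by list, with the number of genes in brackets; red points were called higher, blue lower and grey not called. The black bars are list medians, from 0.52 for trehalose and glycogen to -0.28 for RNA polymerases I and III, and the dashed line is the median of all genes at -0.02.

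In the plot by list the trehalose and glycogen genes have 7 of 14 members past the call limits. Over all lists 107 of 840 genes were called. The lists were chosen with earlier results of these cultures known, and their counts are descriptions beside the background of 8.26% and 5.55%.

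Neighbouring genes differed in how alike their accessibility differences were. In 1117 pairs of divergent neighbours, which face away from each other across 1 intergenic region, the differences correlated across pairs with r = 0.77. In 2074 tandem pairs r was 0.11, and in 1180 convergent pairs 0.07. Where at least 1 gene of a divergent pair was called, both were called in the same direction in 94 of 190 pairs (49.5%), 65 higher and 29 lower, and in opposite directions in 1. For tandem neighbours both were called the same way in 36 of 526 pairs (6.84%) and opposite ways in 26. For convergent neighbours this was 15 of 280 (5.36%) and 12. Pairs can share reads when the authors' windows overlap, so the values of a divergent pair are not independent of each other. Several genes named above have a divergent neighbour called the same way (its log2 difference in brackets). Examples are REC104 with LIN1 (1.05), RFC1 with RUD3 (1.03), THI6 with LEA1 (0.86) and PIB2 with STT3 (0.79). RET1 with PTP2 (0.74), ADH2 with UBP15 (0.76) and, lower, RPC25 with LTV1 (-0.67) are others. The neighbours of LDO45, RPS8B and LCL2 were not called.

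The distance between the genes went with this. For the 359 divergent pairs 300 to 600 bp apart r was 0.97, and 90.8% had mean levels within 1.1-fold of each other. For 289 pairs 600 to 1000 bp apart r was 0.73. For 153 pairs at least 1000 bp apart it was 0.05, and 8.5% had levels that close. The 311 pairs under 300 bp apart had r = 0.89. PDR8 and BOP2, which lie 487 bp apart, had medians of 260 and 250 in wild type and of 896 and 790 in arp5∆. CLN2 and BBP1 lie 1110 bp apart, and CLN2 rose by 0.72 while BBP1 was at -0.20 and not called. RAD54 and SUT1 lie 1734 bp apart, with a fall of 1.09 at RAD54 and 0.04 at SUT1. ARR2 and ARR3 are an exception at short distance: they lie 250 bp apart, and ARR3, the arsenite transporter gene, had 0.27 beside the fall of 1.06 at ARR2.

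**Figure D3:**
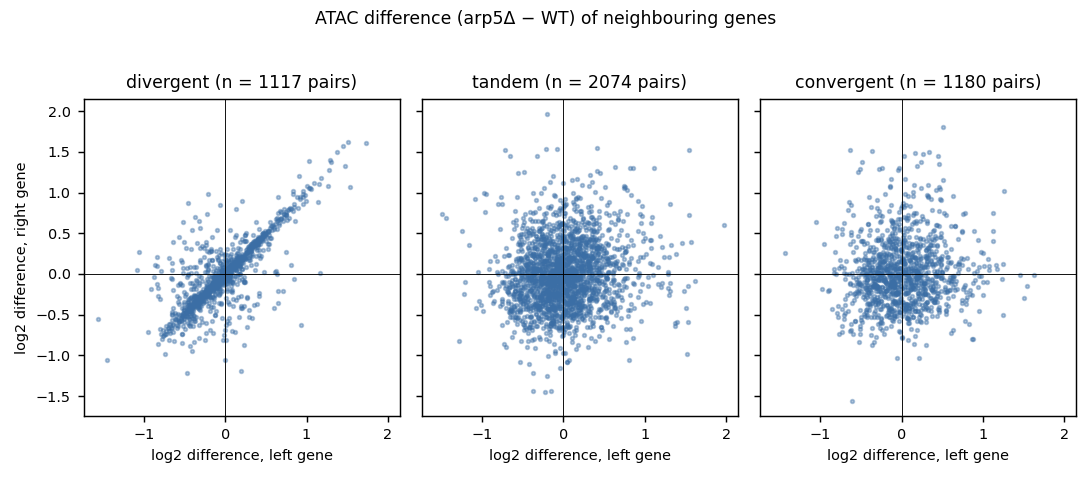
Log2 ATAC difference (arp5∆ minus wild type) of neighbouring genes, the gene at the lower coordinate on the x axis and the gene at the higher coordinate on the y axis, for divergent, tandem and convergent pairs; each point is 1 pair. Divergent pairs lie near the diagonal (r = 0.77), and tandem (r = 0.11) and convergent (r = 0.07) pairs form a round cloud.

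Beside the plots of neighbours, the RNA of the same pairs was compared. Across divergent pairs the RNA differences correlated with r = 0.07. Of the 94 divergent pairs called the same way in accessibility 93 had RNA values for both genes. The RNA differences of the pair had the same sign in 44 of these. No pair had both genes called that way in RNA, and 2 had 1 of them. RNA calls were rare over all genes (0.466% higher and 0.563% lower), so these counts of RNA calls decide little. UBC5 and MAK21 lie 878 bp apart and both fell in accessibility, by 1.46 and 1.05, with RNA differences of -1.49 and 0.01 that were not called. ALT1, the mitochondrial alanine transaminase gene, and XDJ1, a chaperone gene, rose by 0.91 and 1.21. The RNA of ALT1 rose by 1.55 and that of XDJ1 was at 0.04. APA2 and CAB1, a gene of coenzyme A synthesis, rose by 0.81 and 0.80, with RNA differences of 1.23 (called) and 0.18.

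Accessibility and RNA were then set side by side for the 5152 genes tested in both. RNA differences are over the whole cycle, from means of the 2 technical libraries per phase with phase as a block, and a call needed an adjusted p under 0.05 and at least 2-fold. By that rule 24 genes (0.466%) were higher and 29 (0.563%) lower in arp5∆ RNA. The RNA p-values measure how the genotype difference varied over the 6 phases of 1 culture per genotype, and not over cultures. Some genes that cycle widely had large SEs, such as ADH2 (log2 1.95 ± 2.09), so a missing RNA call need not mean a small difference. Of the 427 genes with more accessibility, 11 were called higher in RNA and 1 lower. Of the 287 with less, 10 were called lower and 1 higher. Read from the RNA side, 11 of the 24 genes with more RNA and 10 of the 29 with less RNA had an accessibility call in the same direction, and 1 of each had the opposite call.

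Genes without an RNA call are included in the following counts. The RNA difference was above 0 in 302 of the 427 genes with more accessibility (70.7%, median 0.24) and in 47.6% of all 5152. It was below 0 in 212 of the 287 genes with less (73.9%, median -0.28) and in 52.4% of all. Across genes the differences correlated with Spearman's rho = 0.31 and Pearson's r = 0.31; genes are not independent replicates. Among the wider differences, of the 110 genes with at least 2-fold more, 82 had RNA above 0 (median 0.26) and 1 was called higher, and of the 24 with at least 2-fold less, 17 had RNA below 0 (median -0.45) and 3 were called lower.

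DIP5 had the widest RNA gain among genes called in both readouts, from 37.6 to 348 FPKM (means over 12 libraries; log2 3.23 ± 0.37, limma adjusted p = 0.0127). PRM3, which acts in nuclear fusion during mating, rose in accessibility from 97.5 to 168 (log2 0.82 ± 0.07) and in RNA from 17.0 to 57.2 FPKM (log2 1.73 ± 0.22). SIT1 rose in RNA from 10.6 to 28.6 FPKM (log2 1.34 ± 0.22) beside its gain in accessibility. These genes were higher in both readouts.

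CPR2 fell in RNA from 295 to 64.0 FPKM (log2 -2.15 ± 0.26, limma adjusted p = 0.0161) and ECT1 from 86.0 to 39.9 (log2 -1.09 ± 0.14). LPL1 fell from 83.6 to 31.1 FPKM and LCL2 from 101 to 31.2, with accessibility lower by 1.09 and 0.89 on the log2 scale. SSO1, a plasma membrane t-SNARE gene, fell in accessibility from 570 to 294 (log2 -0.98 ± 0.05) and in RNA from 240 to 112 FPKM. YMD8 fell in accessibility by 0.91 ± 0.10 and in RNA by 1.12 ± 0.15. Of the 20 genes with a standard name that were called in both, 19 moved in the same direction.

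IMP2, the gene of a mitochondrial inner membrane peptidase, was the exception. Its accessibility was 235, 263 and 287 in wild type and 457, 506 and 585 in arp5∆ (log2 0.95 ± 0.05), with no overlap, and its RNA fell from 102 to 48.4 FPKM (log2 -1.09 ± 0.19, limma adjusted p = 0.0435). Its divergent neighbour RCH1, 419 bp away, rose in accessibility by 0.88 and had an RNA difference of 0.50 that was not called. ARP4, described above, had the same pairing of more accessibility and a lower RNA level, with an RNA difference under 2-fold.

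**Figure D4:**
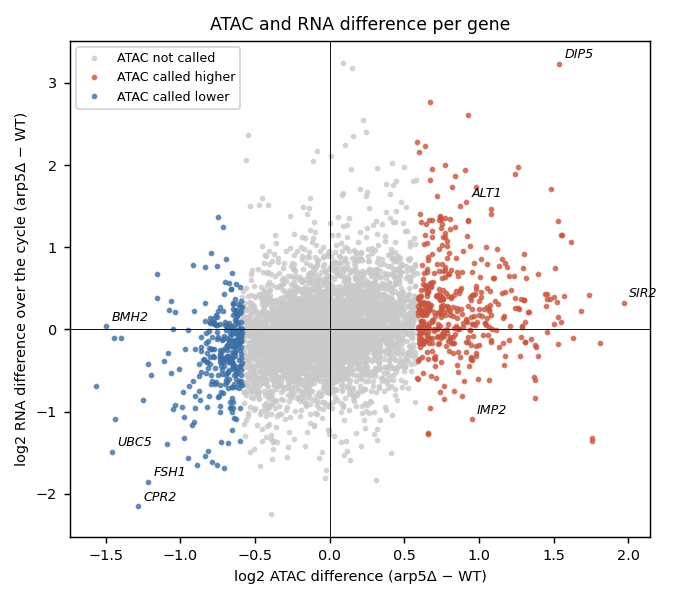
Log2 RNA difference over the cycle (y axis) against log2 ATAC difference (x axis), both arp5∆ minus wild type, for the genes tested in both except ARP5; red points were called higher and blue lower in ATAC. The cloud tilts upward (rho = 0.31); DIP5 lies at the upper right, CPR2 at the lower left, and SIR2 far right near an RNA difference of 0.33.

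The plot of RNA against accessibility shows how wide the scatter is around that tilt: SIR2, NUP157, TAF13, HMS2 and BMH2 had some of the widest accessibility differences and no RNA call.

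The spread over the 12 libraries of a genotype covers phases and technical differences together. The log2 SD was larger in wild type in 3104 of 5193 genes (59.8%), with medians of 0.17 in wild type and 0.15 in arp5∆. It was at least 2 times larger in wild type in 468 genes and at least 2 times larger in arp5∆ in 156. An SD of at least 0.5 was seen in 74 genes in wild type and 14 in arp5∆, 9 of them shared. Among genes with a standard name HSP26, a small heat shock protein gene, had the widest spread in wild type. It had 95.0, 546 and 1009 there, against 291, 661 and 978 in arp5∆. SPG1, a stationary phase gene, followed with 60.9, 149 and 415 (SD 1.04) against 110, 330 and 448 (SD 0.67). ADH1 spread as widely in arp5∆ as in wild type (SD 0.81 and 0.78). These genes were picked for their spread, so it is a description.

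Several genes of cell separation and daughter cells were among the wide spreads in wild type. After these values were seen, a list of 14 such genes was written from their known roles, so its counts are descriptions of genes chosen for this pattern and support nothing. SCW11, a glucanase-like gene of mother and daughter separation, had values of 299 to 368 in 4 wild-type libraries and of at most 115 in the remaining 8. The 12 arp5∆ libraries ran from 104 to 167 and none reached the 4 high wild-type ones. The same 4 wild-type libraries were the highest ones in 12 of the other 13 genes, RME1 being the exception. Over all genes this held for 241 of 5193 (4.64%).

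CTS1, the chitinase gene that dissolves the septum, had 382 to 526 in these 4 libraries, at most 199 in the other wild-type ones and 156 to 268 in arp5∆. DSE1 and DSE2, both daughter-specific genes, had 528 to 707 and 417 to 478 there, while arp5∆ had 203 to 304 and 196 to 302. DSE3, another daughter-specific gene, had 436 to 523 in these 4 libraries, at most 212 in the other 8 and 304 to 473 in arp5∆. The arp5∆ libraries of DSE3 thus lay between and among the wild-type levels, and it was the only gene of the 14 called (log2 0.66 ± 0.20). EGT2, a cell separation gene, had 536 to 771 against at most 323, with 408 to 541 in arp5∆. In 8 of the 14 no arp5∆ library was above the 4th highest wild-type value of the gene. RME1 is among these 8, but its 4th and 5th highest wild-type values were 559 and 555, so its 4 highest did not stand apart. The same count over all genes is not given.

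The log2 SD was smaller in arp5∆ in 14 of these 14 genes, with medians of 0.56 in wild type and 0.15 in arp5∆; wide spreads in wild type led to the list, and 59.8% of all genes had the larger SD in wild type. The RNA of the same genes, whose libraries do carry phases, had a smaller range over the 6 phase means in arp5∆ in 14 of 14, with median log2 ranges of 3.27 and 1.01. A smaller RNA range in arp5∆ was common to 4655 of the 5152 genes tested in both readouts (90.4%). SCW11 RNA went from 31.7 to 553 FPKM over the wild-type phases and from 86.9 to 201 over those of arp5∆. In wild type 13 of the 14 had their RNA peak at RC mid (the middle of the reductive charging phase), and in arp5∆ none did. The share of all genes with that peak is not given. Which phases the 4 high ATAC libraries came from was not read from their values.

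**Figure D5:**
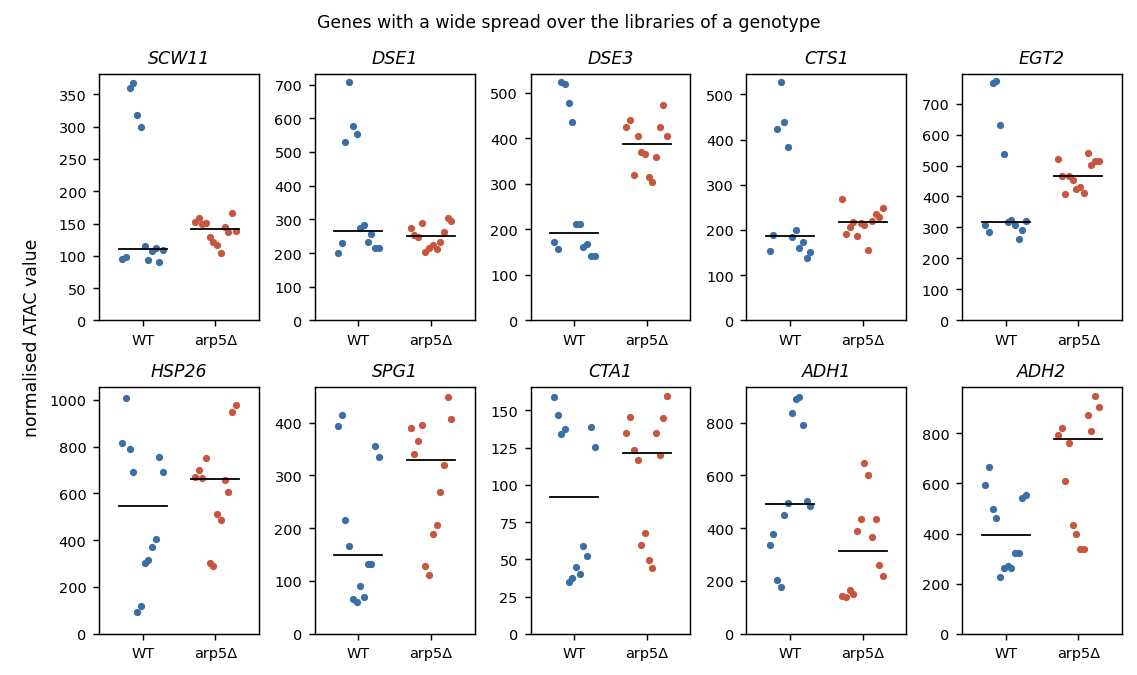
Normalised ATAC value (linear axis from 0) per library of 10 genes with a wide spread, 12 wild-type (blue) and 12 arp5∆ (red) libraries, with the median as a black line. SCW11, DSE1, DSE3, CTS1 and EGT2 each have 4 wild-type libraries set apart above the remaining 8 and no such gap in arp5∆; HSP26, SPG1, CTA1, ADH1 and ADH2 spread widely in both genotypes.

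The plot of wide spreads shows a second kind of gene beside the separation genes. CTA1, the peroxisomal catalase gene, had 35.1, 91.9 and 159 in wild type and 44.2, 122 and 160 in arp5∆, with SDs of 0.88 and 0.66, and was not called. The RNA of ADH2 had a log2 range over the phases of 9.0 in wild type and 6.35 in arp5∆. Over all genes, the accessibility SD and the RNA range over the phases had a Spearman's rho of 0.12 in wild type and 0.06 in arp5∆, a weak relation across genes.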

How the data were processed

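Per the labels, A and B libraries are technical replicates of 1 culture. The ATAC table that the authors deposited holds 1 normalised signal value per gene; per the submitters' processing notes Bowtie2, Picard and the build sacCer3 were used. Its normalization, window and read depth are unknown, and no counting interval can be had. Library sums were 1.63 to 1.65 M in wild type and 1.66 to 1.67 M in arp5∆; log2 values correlated with r of 0.945 to 0.992 within wild type, 0.971 to 0.990 within arp5∆ and 0.884 to 0.944 between genotypes. The authors deposited RNA as FPKM.

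Values were tested as log2(value + 1) with limma 3.58.1 (R 4.3.3), with an intensity trend and Benjamini-Hochberg adjustment over all genes with a mean of at least 10 (ATAC; 1.5-fold minimum) or 1 FPKM (RNA; 2-fold minimum, phase means with phase as a block). Fold changes are on that scale. Of the 5193 genes 5028 matched the RefSeq table (R64) for names and neighbours, and 22 rows repeat another row. The fit was tested on simulated data. Named were ARP5, the 12 largest rises and falls with groups that do not overlap, up to 2 called members per list and direction, and the 12 largest called in both readouts; further genes were named after their values were seen. The members and lists were chosen with earlier results of these data known.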

Additional observations from a re-analysis of the deposited data

How the results depend on the processing

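With no minimum fold 1619 genes were higher and 1875 lower in ATAC at an adjusted p under 0.05, and with a 2-fold minimum 110 and 24. For RNA over all 6510 genes tested, 66 were higher and 33 lower; without the phase block these counts were 135 and 61, and with quantile normalization 35 were higher. The cause of the RNA shifts was not tested. Under pseudocounts of 0.1 and 10, no filter, a mean of at least 50, quantile normalization, median centring, array weights, a Wilcoxon rank-sum test and, chosen after seeing the data, 1 value per upstream region, ATAC counts ran from 337 to 443 higher and from 202 to 294 lower. The lowest of these, 337 and 202, came from entering each upstream region once. They are counts out of 4054 regions in place of 5193 genes, so they cannot be set directly against the other counts. Of 941 recomputed values of named genes 878 kept their direction and call. A further 62 lost the call (48 of them under the 2-fold minimum), 1 gained it and 0 changed direction. No filter, a mean of at least 50, the Wilcoxon test and the other fold minimums leave each difference as it was, so direction could not change there. The setting with no filter repeated the main fit, as all 5193 genes had passed the filter. With 1 value per upstream region, 71 of the 87 named genes were read under their own name, and 3 of these lost the call. The others were entered under another gene of their region and are not in this count. Among those others, the pair means of IES6 and EKI1 are under the 1.5-fold limit. No paired analysis was possible because the ATAC columns carry no phase or library letter. No depth is known, so the precision of low values rests on the spread between libraries.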

Other observations

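The intergenic distance upstream of a gene went with its share of calls. Of 177 genes with a tandem upstream neighbour under 200 bp away, 12.4% were called lower and 3.39% higher. Of 806 with such a neighbour 400 to under 800 bp away, 3.97% were lower and 12.7% higher. Of 593 genes with a divergent neighbour at least 800 bp away 9.44% were lower and 4.72% higher, against 5.55% and 8.26% of all genes. ECT1, CPR2 and LPL1, with tandem gaps of 143, 153 and 131 bp, were among the 12 largest falls, and so was HMS2, which overlaps its upstream neighbour by the annotation. Whether the authors' windows reach into the neighbouring gene at such distances was not tested.

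The ATAC table does not list every gene. Of the nuclear protein-coding genes with RNA values 5023 had an ATAC value and 851 had none, and the median RNA level was 58.3 FPKM in the former and 12.3 in the latter. Of the 29 listed meiosis and sporulation genes 9 had an ATAC value, and of 21 hexose transporters 10.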
